A study of Mus musculus with 24 samples.

Results

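The cardiac myosin heavy chain genes of the mouse are Myh6, Myh7 and Myh7b, and Myh6 encodes the α chain from which the peptide used to induce experimental autoimmune myocarditis (EAM) was taken. These 3 genes were picked by symbol out of 41388 Ensembl genes in the deposited count tables, and all 3 had reads in all 24 hearts. The hearts came from wild type male Balb/c mice (BALB/cAnNCrl in the study's methods), immunized as young adults. EAM mice received 100 µg of the α chain peptide in supplemented complete Freund's adjuvant (SCFA) on days 0 and 7 and pertussis toxin on day 0. Control mice received the same adjuvant and toxin with PBS in place of the peptide, so that both groups carry the adjuvant response. RNA from a piece of each heart was sequenced 10, 15 and 21 days after the first injection (D10, D15 and D21), with 4 EAM and 4 control hearts at each day. The EAM groups are not random draws of immunized mice, since the study gave preference to inflamed hearts when it selected tissue to sequence.

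Myosin heavy chains are the motor proteins of the thick filament of the sarcomere, where each pairs with essential and regulatory light chains. In the adult mouse ventricle the fast α chain made from Myh6 is the main form, and the slower β chain made from Myh7 is the main form before birth and returns under pressure load or low thyroid hormone. Myh7b is a more distant relative transcribed in heart and slow muscle. Each of the genes hosts a microRNA in an intron, miR-208a in Myh6, miR-208b in Myh7 and miR-499 in Myh7b, and the α chain is a known target of T cells in autoimmune myocarditis.

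In GRCm38, Myh6 (ENSMUSG00000040752) lies at chr14:54941921-54966927 and Myh7 (ENSMUSG00000053093) at chr14:54970684-54994626, both on the minus strand with 3756 bases between them. Myh7b (ENSMUSG00000074652) lies at chr2:155611212-155634307 on the plus strand. The coding exons of Myh6 that give residues 614 to 629, the stretch named in the peptide, read as follows in the GENCODE transcript, with the matching stretches of Myh7 (residues 613 to 628) and Myh7b (residues 617 to 632). Capitals mark bases that differ from Myh6, and the sequences are shown because they tell the autoantigen from its 2 relatives.
Myh6: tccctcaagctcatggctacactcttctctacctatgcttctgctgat
Myh7: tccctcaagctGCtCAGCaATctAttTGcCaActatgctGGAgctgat
Myh7b: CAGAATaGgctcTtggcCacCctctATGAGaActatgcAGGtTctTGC
Over these 48 bases Myh7 differed from Myh6 at 16 positions and Myh7b at 23. Of the 16 residues encoded, 10 are shared between the α and β chains and 6 between the α chain and Myh7b. Over the whole protein the α and β chains are 93.6% identical, and Myh7b is 69.4% identical to the α chain and 70.2% to the β chain. The peptide stretch is thus among the places where the α and β chains differ.

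The microRNAs of the introns are shown for their seeds, bases 2 to 8, in capitals (RefSeq, GRCm38.p6).
miR-208a-3p, in Myh6: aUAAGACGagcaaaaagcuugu
miR-208b-3p, in Myh7: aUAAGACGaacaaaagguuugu
miR-499-5p, in Myh7b: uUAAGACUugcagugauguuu
The seeds of miR-208a-3p and miR-208b-3p are the same, and that of miR-499-5p differs from them in its last base. The mRNA libraries do not measure mature microRNAs, and only reads on the hairpin loci were counted.

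Myh6 and Myh7 are alike enough that some reads fit both. Of the 6039 windows of 75 bases (1 read length) in the main Myh6 transcript, 939 (15.5%) also occur in the main Myh7 transcript, and 0 occur in that of Myh7b. The study set apart reads that mapped to several loci and kept only those assigned to a single gene, so reads that fit both genes equally well are not in either count. The Myh7b count shares no window of this length with either.

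Total counts ranged from 15814863 to 24980864 per heart, so that counting error was small for all 3 genes, the lowest count being 180 for Myh7b. Several features of the libraries move with the groups. The summed level of 12 leucocyte markers, in CPM (a gene's counts scaled to a common library total), was between 344 and 390 in D15 control hearts and between 2851 and 4300.5 in D15 EAM hearts. At D10 the leucocyte sum was 379 to 899 CPM in controls and 608 to 2638 CPM in EAM hearts, and at D21 it was 274 to 491 CPM and 1030 to 3601 CPM. Ptprc (CD45, carried by leucocytes) was between 16.5 and 20.7 CPM in the D15 control hearts and between 243 and 305 CPM in the D15 EAM hearts. The sum of 5 fibroblast markers was between 1446 and 1702 CPM in D15 control hearts and between 4498 and 10508 CPM in D15 EAM hearts. Of these 5, 3 passed higher at D15, where 33.2% of all tested genes did. The median log2 fold change of this list was 0.73, while the collagen gene Col1a1 was at 4.31 to 4.73 with 1 heart left out. The sum therefore does not stand for fibroblast number. Of the 5 endothelial markers, 5 passed lower at D15, of the 4 smooth muscle markers 1 passed lower, and of the 7 skeletal muscle markers, 1 of 3 tested passed higher at summed levels of at most 5.07 CPM, where 31.1% of all tested genes passed lower and 33.2% higher. Mitochondrially encoded genes took 3.19% to 4.31% of the counts of D15 EAM hearts and 6.10% to 7.14% of those of D15 controls. The 4 D21 EAM libraries carry another library code than the other 20, so that this code and EAM cannot be told apart at D21. Atrial markers were also uneven among the groups. The sum of 7 atrial markers was 292 to 562 CPM in D10 controls, 665 to 2193 CPM in D10 EAM, 325 to 2641 CPM in D15 controls, 606 to 1886 CPM in D15 EAM, 1905 to 2963 CPM in D21 controls and 87.7 to 199.8 CPM in D21 EAM hearts. The D15 controls were split, with replicate 4 at 325 CPM and the other 3 at 1984 to 2641 CPM. Bmp10, made in atrial cardiomyocytes, was at 100 to 246 CPM in the D21 control hearts and at 0.0668 to 0.276 CPM in the D21 EAM hearts. The sums for ventricular markers overlapped between EAM and controls at D10 and D21 and not at D15, where they were 1066 to 2767 CPM in EAM and 4886 to 5516 CPM in control hearts.

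In control hearts Myh6 was among the 4 genes with the most reads. Per kilobase of transcript, Myh6 averaged 1833 ± 218 CPM (SD, n = 4), Myh7 68.7 ± 5.03 and Myh7b 15.5 ± 2.26 in D15 controls. The order of the 3 genes was the same in all 24 hearts. Together they took 0.987% to 1.36% of all reads in controls and 0.230% to 0.895% in D15 EAM hearts.

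Myh6, the gene of the α chain and of the autoantigen, was lowest in D15 EAM hearts. At D10 its level in replicates 1 to 4 was 9914, 12514, 13738 and 13036 CPM in controls and 6311, 13593, 9856 and 13060 CPM in EAM hearts. The D10 groups overlapped, and replicate 1 of EAM was the lowest heart. That heart also stood apart in its markers, with 2638 CPM for the leucocyte list against 608 to 1241 in the other D10 EAM hearts, and 3242 CPM for the ventricular list against 4780 to 5412. Without it the D10 log2 fold changes were -0.03 for Myh6, 0.14 for Myh7 and -0.29 for Myh7b. At D15 it was 9484, 10827, 12328 and 12188 CPM in controls and 3050, 1768, 8073 and 3930 CPM in EAM hearts. All D15 EAM hearts lay below all D15 controls, but replicate 3 was close to the control range. At D21 it was 11987, 12059, 12144 and 10482 CPM in controls and 4891, 7543, 11691 and 4081 CPM in EAM hearts. The D21 EAM hearts were spread widely, with replicate 3 within the control range and the other 3 below it.

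The fitted log2 fold change of Myh6 (EAM against control, edgeR quasi-likelihood test, SE, with Benjamini-Hochberg adjustment over all genes tested) stood at -0.21 ± 0.26 for D10 (FDR 0.646), -1.38 ± 0.41 for D15 (FDR 0.0121) and -0.72 ± 0.32 for D21 (FDR 0.114). None of the 3 values passed the limit of 0.01. The D15 value corresponds to 0.385 times the control level, and its 95% interval on the log2 scale was -2.18 to -0.58. At D15, 1017 of 15693 tested genes had a lower fitted value. In a bulk sample such as this, fewer cells of a type and less RNA per cell cannot be told apart. Of the fits that left out 1 heart, Myh6 passed at each later day only in the one without EAM replicate 3. That was the EAM heart of the day with the highest Myh6 level. At D15 Myh6 also passed in 7 other settings with all hearts kept. Without replicate 3 of the D15 EAM hearts, the D15 value was -1.87 (FDR 0.000151), and without replicate 3 of the D21 EAM hearts, the D21 value was -1.07 (FDR 0.00809).

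**Figure D1:**
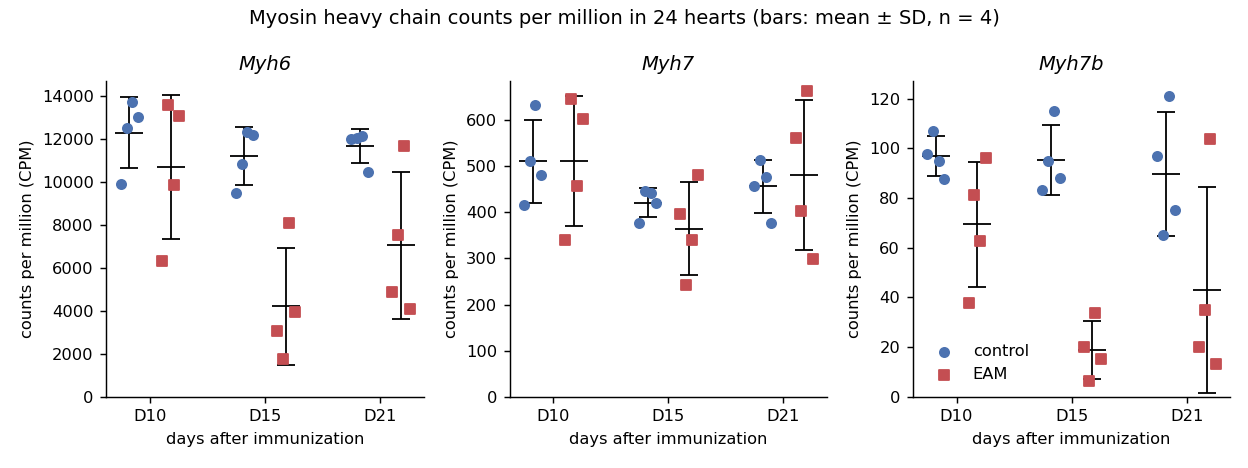
CPM of Myh6, Myh7 and Myh7b in each of 24 hearts at D10, D15 and D21 (circles control, squares EAM; black bars mean ± SD, n = 4). Myh6 and Myh7b are low in D15 EAM hearts, at 1768 to 8073 and 6.30 to 33.7 CPM, while Myh7 in EAM hearts overlaps the controls at all 3 days.

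Myh7, the gene of the β chain, overlapped between EAM and control hearts at all 3 days. At D10 it was 417, 513, 632 and 481 CPM in control replicates 1 to 4 and 339, 646, 456 and 603 CPM in EAM hearts. At D15 it was 378, 446, 441 and 421 CPM in controls and 396, 242, 341 and 481 CPM in EAM hearts. At D21 it was 457, 514, 477 and 378 CPM in controls and 562, 402, 664 and 299 CPM in EAM hearts. EAM hearts were more spread than controls at all 3 days and lay on both sides of them. For Myh7, edgeR's quasi-likelihood test gave a log2 fold change of -0.01 ± 0.21 at the earliest day (FDR 0.982), -0.17 ± 0.19 at D15 (FDR 0.430) and 0.09 ± 0.23 at the latest (FDR 0.769). The 95% interval at D15 ran from -0.53 to 0.20 on the log2 scale.

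Myh7b was the one of the 3 genes that fell by the test at D15. At D10 it was 97.8, 107, 95.02 and 87.7 CPM in control replicates 1 to 4 and 37.7, 81.1, 62.6 and 96.0 CPM in EAM hearts. In the D10 EAM group 3 of 4 hearts lay below all controls. At D15 it was 83.2, 94.98, 115 and 88.1 CPM in controls and 20.2, 6.30, 33.7 and 15.0 CPM in EAM hearts. The D15 groups were far apart, and replicate 2 of EAM was the lowest for Myh7b as for Myh6. At D21 it was 97.0, 65.0, 121 and 75.4 CPM in controls and 20.2, 34.8, 104 and 13.1 CPM in EAM hearts. Replicate 3 of the D21 EAM hearts was again within the control range and the other 3 were below it.

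The same test gave Myh7b a log2 fold change (edgeR) of -0.49 ± 0.24 at D10 (FDR 0.344), -2.31 ± 0.40 at D15 (FDR 0.000580) and -1.07 ± 0.57 at D21 (FDR 0.171). The D15 value is 0.202 times the control level, and 121 of 15693 tested genes had a lower one. Without replicate 3 of the D21 EAM hearts the D21 value was -1.96 (FDR 0.00296), and no other fit that left out 1 heart passed at D21.

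Of the 3 myosin heavy chain genes, Myh7b alone passed an FDR of 0.01 at D15, where 31.1% of all tested genes passed in the lower direction, 33.2% in the higher, and 12.9% were lower with at least a 2-fold change. All EAM hearts lay below all controls for 35.9% of tested genes at that day, so that neither count sets the myosin genes apart from the table as a whole. At D10, 0 of 15029 genes passed with edgeR's quasi-likelihood test (percent called 0), 2292 had an unadjusted p under 0.05, and DESeq2 passed 62 higher and 13 lower, none of them Myh6, Myh7 or Myh7b. With all 12 controls, 1307 genes passed higher and 612 lower at D10. At D21, 3.1% of genes passed lower (473 genes) and 0 of the 3 myosin genes did. That background was unstable, with 0, 0, 0 and 9 genes lower when control replicates 1 to 4 were left out in turn, and 10, 34, 1570 and 384 when EAM replicates 1 to 4 were, while DESeq2 gave 1651.

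**Figure D2:**
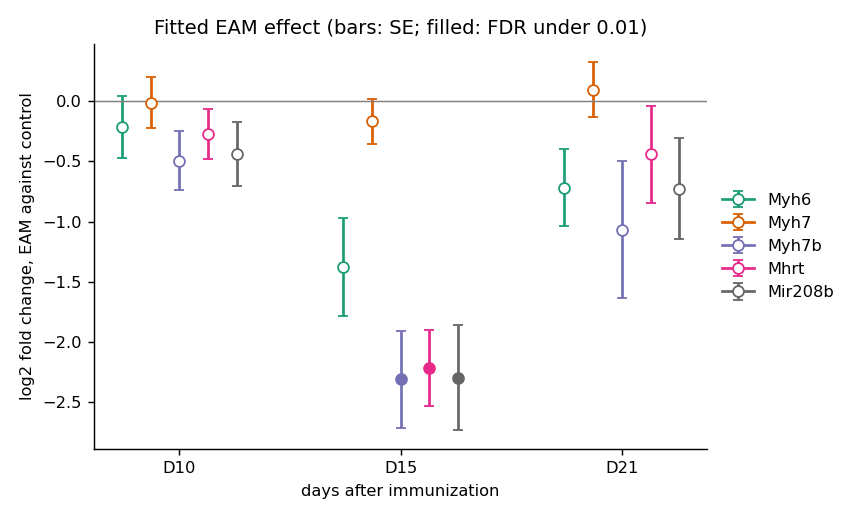
Fitted log2 fold change of EAM against control at each day for Myh6, Myh7, Myh7b and the transcripts of Mhrt and Mir208b, with SE bars and filled points for an FDR under 0.01. At D15 Myh7b, Mhrt and Mir208b lie between -2.31 and -2.22, Myh6 at -1.38 and Myh7 at -0.17.

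The EAM effect on the 3 genes was compared between days in a fit of all 24 hearts. From D10 to D15 it moved by -1.21 ± 0.50 for Myh6 (FDR 0.0541), by -0.21 ± 0.32 for Myh7 (FDR 0.612) and by -1.86 ± 0.68 for Myh7b (FDR 0.0308) on the log2 scale, and none of these passed 0.01, while 16.7% of tested genes (2733) passed lower, a number that ranged from 1676 without replicate 2 of the D15 EAM hearts to 3653 without replicate 1 of the D10 EAM hearts. Without replicate 3 of the D15 EAM hearts the shift of Myh6 was -1.74 (FDR 0.00337) and that of Myh7b -2.30 (FDR 0.00990). From D15 to D21 the effect moved by 0.69 ± 0.50 for Myh6 (FDR 0.307), 0.29 ± 0.33 for Myh7 (FDR 0.523) and 1.28 ± 0.68 for Myh7b (FDR 0.162), and none passed (without replicate 3 of the D21 EAM hearts 0.33, 0.091 and 0.36), while 8.47% of tested genes (1382) passed higher. This number ranged from 637 without replicate 2 to 2612 without replicate 4 of the D21 EAM hearts. Between control hearts of different days, the log2 differences of Myh6, Myh7 and Myh7b lay between -0.28 and 0.11, with FDR values of 0.849 or more.

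The balance of the β and α chains was taken as the log2 ratio of Myh7 to Myh6 counts per base of transcript in each heart, with 0.5 added to each count. As a share of the sum of both, Myh7 made up 4.02%, 3.92%, 4.38% and 3.55% in D10 control replicates 1 to 4 and 5.09%, 4.52%, 4.41% and 4.40% in D10 EAM hearts. At D15 it was 3.82%, 3.94%, 3.44% and 3.33% in controls and 11.5%, 12.01%, 4.03% and 10.9% in EAM hearts. At D21 it was 3.66%, 4.07%, 3.77% and 3.47% in controls and 10.3%, 5.04%, 5.35% and 6.81% in EAM hearts. At each day all EAM hearts lay above all controls of the day, although the margin was narrow at D10 and for replicate 3 at D15. Myh6 remained the more abundant of the pair in all hearts.

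The log2 ratio of Myh7 to Myh6 was higher in EAM than in control hearts by 0.23 ± 0.084 (SE) at D10, 1.38 ± 0.41 at D15 and 0.87 ± 0.26 at D21, or 1.17-fold, 2.59-fold and 1.83-fold. The two-sided exact permutation p was 0.0286 at each day, the smallest that 4 against 4 hearts can give, and 0.0857 after Benjamini-Hochberg adjustment over the 9 ratio comparisons made, which does not pass 0.05. With all 12 control hearts as controls, the adjusted exact p came to 0.00247 for D10, 0.00495 for D15 and 0.00247 for D21. That setting permutes labels across days, so a difference between days is not kept apart from the EAM effect. At D10 the difference grew from 0.23 to 0.30 with the controls of the other days. All D10 and D21 EAM hearts lay above all 12 controls, which fixes the exact p of those days. The setting therefore does not replace the per-day tests. Among controls the ratio moved by -0.13 from D10 to D15 (adjusted exact p = 0.257), by -0.09 from D10 to D21 (0.441) and by 0.05 from D15 to D21 (0.629), and all 3 pairs of groups overlapped. Between EAM groups it moved by 1.02 from D10 to D15 (adjusted exact p = 0.257), by 0.56 from D10 to D21 (0.129) and by -0.46 from D15 to D21 (0.450), again with overlap. Without replicate 3 of the D15 EAM hearts the shift from D15 to D21 was -0.87. The EAM effects on the ratio were not tested against each other between days.

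Averaged over the 3 days, the EAM effect on the log2 ratio of Myh7 to Myh6 was 0.82, and 12 of 12 EAM hearts lay above all controls of their day. For D10 and D15, whose 16 libraries carry 1 code, the average was 0.80. An exact permutation test with labels permuted within days, added after the separation of the groups had been seen, gave these averages p = 5.83e-06 and p = 0.000408 (adjusted over 5 such measures, 2.92e-05 and 0.00204). These are the smallest values the 343000 and 4900 splits can give, and the separation already seen at each day fixes them, so they add no support to the per-day result. Replicate 3 of the D15 EAM hearts, with the lowest Myh7 share of its group (4.03%), also had the lowest leucocyte sum (2851 CPM against 3581 to 4300.5) and fibroblast sum (4498 CPM against 8641 to 10508) of the D15 EAM hearts. Its ventricular and atrial sums were the highest of that group (2767 and 1886 CPM). Replicate 1 of the D10 EAM hearts, with the highest share of its group (5.09%), had the highest leucocyte sum (2638 CPM). Other hearts went the other way. D10 EAM replicate 2 had the lowest leucocyte sum (608 CPM) and a share of 4.52%, above replicates 3 and 4. D21 EAM replicate 3 had the lowest leucocyte and fibroblast sums (1030 and 3085 CPM) and a share of 5.35%, above 5.04% in replicate 2. The summed atrial marker level did not overlap between D10 and D21 controls, and their Myh7 to Myh6 ratios overlapped. The part of atrial tissue, leucocytes and fibroblasts in the EAM effect on the ratio was not tested.

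**Figure D3:**
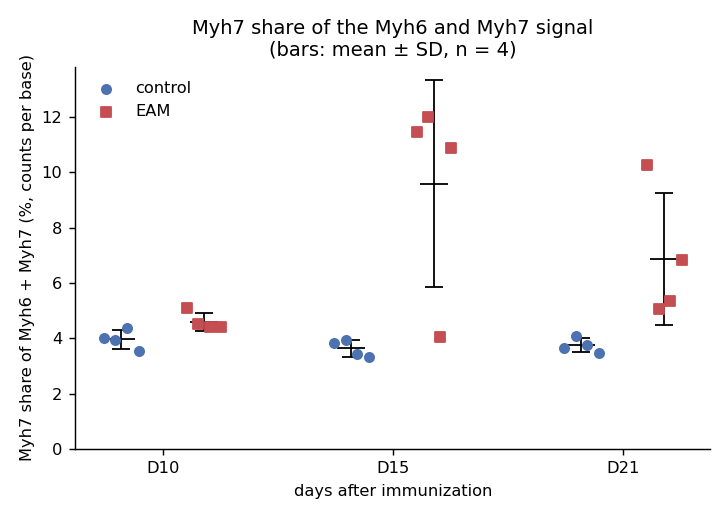
Share of Myh7 in the sum of Myh6 and Myh7 (percent, counts per base of transcript) in each heart at D10, D15 and D21 (circles control, squares EAM; bars mean ± SD, n = 4). Controls lie between 3.33% and 4.38% at all days, and EAM hearts reach 12.01% at D15 and 10.3% at D21, with 1 D15 EAM heart at 4.03%.

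The ratio of Myh7b to Myh6, also added after the values had been seen, had the opposite sign. The log2 ratio was lower in EAM hearts by -0.31 ± 0.15 at D10 (exact permutation p = 0.114), by -0.94 ± 0.22 at D15 (exact p = 0.0286) and by -0.63 ± 0.36 at D21 (exact p = 0.143), and the adjusted p over these 3 was 0.143, 0.0857 and 0.143. Over the 3 days its mean difference was -0.63, with 10 of 12 EAM hearts below all controls of their day (exact permutation within days, p = 0.000997, adjusted 0.00166, also added after the values had been seen).

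Each gene was also set against 12 thin filament and Z-disc genes of the sarcomere, such as Actc1 (cardiac actin) and Myoz2 (a Z-disc protein), as its log2(CPM + 0.5) minus the mean over that list. The value of Myh6 so taken, which was above 0 in all hearts, differed between EAM and control hearts by -0.41 ± 0.29 at D15 (exact permutation p = 0.257, groups overlapping) and by -0.60 ± 0.14 at D21 (exact p = 0.0286, no overlap), with -0.02 ± 0.19 at D10. Against 10 other cardiomyocyte genes the D15 difference for Myh6 was -0.05. The value of Myh7, below 0 in all hearts, differed by 0.97 ± 0.21 at D15 (exact p = 0.0286, no overlap), with 0.20 ± 0.20 at D10 and 0.27 ± 0.20 at D21, where the groups overlapped. That of Myh7b, also below 0 in all hearts, differed by -1.31 ± 0.34 at D15 (exact p = 0.0286, no overlap) and by -1.21 ± 0.47 at D21 (exact p = 0.0857), with -0.33 ± 0.20 at D10. Over the 9 tests the smallest adjusted p was 0.0857, so none passed 0.05. In the permutation within days, added after the values had been seen, the average effect was 0.48 for Myh7 (exact p = 0.00233, adjusted 0.00292), -0.95 for Myh7b (exact p = 0.000321, adjusted 0.000802) and -0.34 for Myh6 (exact p = 0.0160, adjusted 0.0160). That for Myh6 was -0.22 over D10 and D15 alone (exact permutation p = 0.246). As these averages rest on the same hearts as the per-day values, they are not independent of them.

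**Figure D4:**
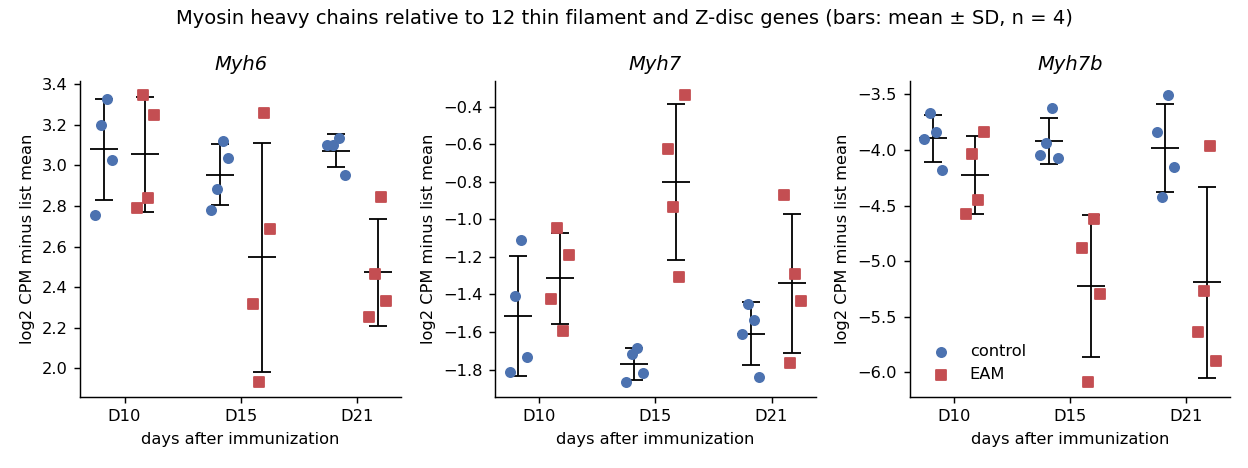
Level of each myosin heavy chain gene in each heart relative to the mean of 12 thin filament and Z-disc genes, as a difference of log2(CPM + 0.5) values (circles control, squares EAM; bars mean ± SD, n = 4). At D15 the EAM hearts lie above the controls for Myh7, below them for Myh7b, and on both sides for Myh6.

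Of the transcripts that share the locus of Myh7, Mhrt and Mir208b fell at D15. Mhrt, a long noncoding RNA antisense to Myh7 and known from the healthy adult heart, lies at chr14:54968678-54974349 on the plus strand and overlaps the end of Myh7 over part of that length. Mhrt was 21.9, 23.7, 26.2 and 24.3 CPM in D15 control replicates 1 to 4 and 4.16, 2.24, 8.61 and 5.25 CPM in D15 EAM hearts, groups that were far apart. Its fitted log2 fold change (edgeR quasi-likelihood test) was -2.22 ± 0.32 at D15 (FDR 0.000172), and the D10 and D21 values were -0.27 ± 0.20 (FDR 0.476) and -0.44 ± 0.40 (FDR 0.413). With 1 heart left out, Mhrt ranged from -0.42 to -0.087 at D10, -2.56 to -1.93 at D15 and -0.87 to -0.18 at D21. The shift of the Mhrt effect from D10 to D15, -1.99 ± 0.51, passed with an FDR of 0.00514. The library kit keeps strand, but the sources used here do not state the strand setting of the counting, and reads that spanned several features were set apart by the study. How reads over the overlap of Mhrt and Myh7 were treated therefore depends on that setting.

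The Mir208b hairpin, 77 bases at chr14:54975700-54975776 in a Myh7 intron, had 74, 79, 133 and 113 reads in D15 control replicates 1 to 4 and 26, 10, 52 and 21 in D15 EAM hearts. Its log2 fold change was -2.30 ± 0.44 at D15 (edgeR FDR 0.00104), -0.44 ± 0.27 at D10 (FDR 0.401) and -0.73 ± 0.42 at D21 (FDR 0.202). With 1 heart left out, Mir208b ranged from -2.83 to -1.96 at D15, -0.57 to -0.20 at D10 and -1.12 to -0.45 at D21. At D15 this row, whose reads lie in intron sequence, and Mhrt had fitted values near that of Myh7b, while the value for Myh7 itself was -0.17. These differences between genes were not tested. The Mir208a hairpin had at most 10 reads in any heart and that of Mir499 at most 2, too few to compare.

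The 7 skeletal, embryonic and related sarcomeric chains Myh1, Myh2, Myh3, Myh4, Myh8, Myh13 and Myh15 were all under the count limit at every day. Among 4 smooth muscle and non-muscle chains, Myh9, the non-muscle chain abundant in leucocytes and fibroblasts, rose by 1.48 ± 0.15 on the log2 scale at D15 (edgeR FDR 2.12e-05), and Myh14 fell by 0.92 ± 0.19 (FDR 0.00187). Of 9 light chain and light chain kinase genes, 5 passed lower at D15 and 1, Mylk2, passed higher, where 31.1% of all tested genes passed lower and 33.2% higher. The Mylk2 call, at 0.0589 to 0.466 CPM in D15 controls and 0.464 to 1.81 CPM in D15 EAM hearts, was lost with limma-voom (FDR 0.0202), all 24 hearts in one fit (FDR 0.0209), the replicate block (FDR 0.0340) and without any 1 D15 control (FDR 0.0116 to 0.0259), and without a D15 EAM heart the gene was under the count limit. Mylk4, a light chain kinase of heart muscle, fell by 2.52 ± 0.44 (FDR 0.000573), from 419 to 479 CPM in controls to 28.0 to 152 CPM in EAM hearts, and Myl3, the ventricular essential light chain, fell by 1.45 ± 0.26 (FDR 0.000648). Among 14 tested genes of myosin binding, folding and turnover, 11 passed lower and 0 higher, against the same 31.1% and 33.2%. They include Smyd1, a methyltransferase needed for thick filament assembly, at -1.47 ± 0.19 (FDR 9.62e-05), and Trim63 (MuRF1), a ubiquitin ligase that marks myosin heavy chain for breakdown, at -1.13 ± 0.21 (FDR 0.000819).

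The thin filament and Z-disc list passed lower in 12 of 12 genes at D15 and the other cardiomyocyte list in 10 of 10, where 31.1% of all tested genes did. Their median log2 values were -1.20 and -1.43, where the median of all genes was 0.02. Actc1 was at -1.45 ± 0.16 (edgeR FDR 4.05e-05), Casq2 (calsequestrin of the sarcoplasmic reticulum) at -1.66 ± 0.15 (FDR 1.21e-05) and Ckm (muscle creatine kinase) at -1.90 ± 0.37 (FDR 0.00110). The value of Myh6 lay within the spread of these genes and that of Myh7b beyond them. At D21, 0 of 12 and 0 of 10 passed, where 3.1% of all tested genes passed lower, with medians of -0.16 and -0.27.

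Genes of thyroid hormone signalling, which turns Myh6 on and Myh7 off in the adult ventricle, moved in both directions at D15. Of 13 tested, 6 passed lower and 2 passed higher, Dio3 among them, beside 31.1% and 33.2% of all tested genes. The receptor gene Thrb was at -1.45 ± 0.20 (edgeR FDR 0.000139), and Rxrg, which encodes a partner receptor, was at -2.03 ± 0.20 (FDR 1.93e-05). Dio3, the deiodinase that inactivates thyroid hormone, was at 0 to 0.294 CPM in D15 controls and at 3.92 to 17.3 CPM in D15 EAM hearts (FDR 2.35e-05). All D15 EAM hearts were above all controls for Dio3, which reached the count limit of the test through the EAM hearts alone. It could therefore only be called higher, and the call adds nothing to these ranges. At D21 Dio3 was at 0.0480 to 0.152 CPM in controls and at 0.134 to 23.8 CPM in EAM hearts, with overlap, and was below the count limit of the test.

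Of 18 tested transcription factors known from the control regions of myosin heavy chain genes, 10 passed lower at D15 and 4 higher, beside 31.1% and 33.2% of all tested genes. Gata4 was at -1.05 ± 0.10 (edgeR FDR 1.49e-05), Nkx2-5 at -0.92 ± 0.08 (FDR 7.01e-06) and Myocd, a coactivator of serum response factor, at -1.04 ± 0.18 (FDR 0.000507). The 4 that rose were Nfatc1, Nfatc2, Nfatc3 and Nfatc4, calcineurin-dependent factors that T cells also use. Among 6 genes described as repressors of Myh6 or Myh7, Sox6 fell by 0.98 ± 0.15 (FDR 0.000228), Sp3 rose by 0.43 ± 0.07 (FDR 0.000307), and Smarca4 also passed higher. Of 6 genes often measured with Myh7 under load, Fhl1 rose by 0.66 ± 0.12 (FDR 0.000862), Rcan1 also passed higher, and Acta1, the skeletal actin, fell by 0.68 ± 0.15 (FDR 0.00240). The call for Acta1 was lost without replicate 1 of the D15 EAM hearts (-0.62, FDR 0.0130) and with scaling by total counts (-0.53, FDR 0.0101). The other 3 did not pass at D15. At D21, 1 of the 6 passed higher and 1 lower, where 4.71% and 3.1% of all tested genes did. Acta1 was at 1528 to 2255 CPM in D21 controls and at 2552 to 3543 CPM in D21 EAM hearts, without overlap and in the opposite direction (0.74 ± 0.18, edgeR FDR 0.0167, not passed, but under 0.01 with DESeq2, edgeR's likelihood ratio test, all 24 hearts in one fit and all 12 controls). Fhl1 passed at D21 as well (0.72 ± 0.13, FDR 0.00778), a call lost in 6 of the 8 fits that left out 1 D21 heart, those without any 1 control or without EAM replicate 1 or 2 (FDR 0.0125 to 0.0330). Nppa, the gene of atrial natriuretic peptide and also one of the atrial markers, was at 554 to 851 CPM in D21 controls and at 51.1 to 175 CPM in D21 EAM hearts (-2.45 ± 0.38, edgeR FDR 0.00588). Its call was lost in the same 6 fits (FDR 0.0101 to 0.0276) and with all 12 controls (-1.77, FDR 0.0598).

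**Figure D5:**
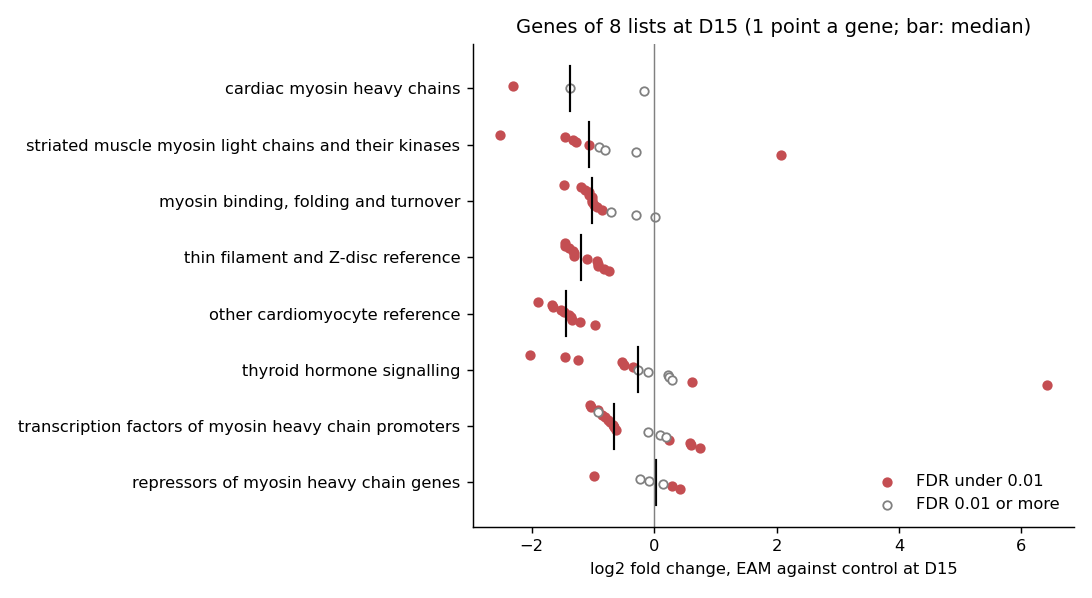
Fitted log2 fold change at D15 (horizontal axis) of the genes of 8 lists, 1 point a gene, filled where the FDR is under 0.01, with a black bar at the median of the list. The sarcomere and cardiomyocyte lists lie to the left of 0, with medians of -1.20 and -1.43, the thyroid list spreads to both sides with Dio3 far to the right (a fitted value that depends on the prior count, since controls were near 0), and the repressor list centres near 0 at 0.03.

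The genes whose log2(CPM + 1) was most like that of each member over the 24 hearts were picked among 14217 genes that averaged 1 CPM or more. For Myh6 they included Pygm, Atp2a2 and Txlnb, with Pearson's r of 0.982 to 0.986. For Myh7b they were Asb15, Hnrnph3, Mlxipl, Ybx2 and Cpeb3, with r of 0.975 to 0.980. Likeness was weaker for Myh7, with Gga1, Gaa, Tfeb, Xrcc1 and Phf1 at 0.757 to 0.787. The r between Myh6 and Myh7b was 0.954, and Myh7 had an r of 0.638 with Myh6 and 0.589 with Myh7b. The ratio of Myh7 to Myh6 was most like Cpz, Mpo, Nucb1, Pld3 and Glmp, with r of 0.937 to 0.955. The hearts form 6 groups and each value shares its library with the other, so these are descriptions with no test.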

How the data were processed

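RNA-seq of 24 hearts was analysed from the counts the authors deposited. The authors aligned read pairs of 75 bases to GRCm38 with HISAT2 2.0.4, removed duplicates with Picard and counted reads per Ensembl gene with featureCounts, with no normalization. The number of columns of other samples was 0. The 92 spike-in rows had 0 reads and were left out. For each day, genes reaching 10 reads in 4 or more of 8 hearts were tested with edgeR 4.0.16 (quasi-likelihood, TMM) in R 4.3.3, with an FDR limit of 0.01 over all genes tested. Contrasts between days used all 24 hearts. SE was taken as the log2 fold change over the root of F. Ratios were tested with two-sided exact permutation tests over 70 splits. Replicates are single hearts. Total counts were 15814863 to 24980864. Alternatives were limma 3.58.1, DESeq2 1.42.0, other scaling, filters, controls, lengths and left-out hearts. Genes named with values were the 3 myosin genes, transcripts of their loci and, out of 19 lists, genes among the 3 largest changes of a list at D15 or called at another day. Rcan1, Smarca4, the 4 Nfatc genes and the genes listed as under the count limit were named after their values were seen. The members and lists were chosen with earlier results of these data known. Fits were tested on simulated data. Some genes that the rules would name are not reported here.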

Additional observations from a re-analysis of the deposited data

Results flagged for a closer look

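Of 66 combinations of a group and a measure checked, 3 had 1 heart far from the other 3, and chance flags about 1 in 20. The log2 ratio of Myh7 to Myh6 in replicate 3 of the D15 EAM hearts was -4.57, where the other 3 were between -3.03 and -2.87, and its Myh7 share was 4.03% against 10.9% to 12.01%. Replicate 4 of the D21 controls had 10482 CPM of Myh6, below 11987 to 12144 CPM in the other 3. The EAM effect on Mhrt differed between D15 and D10 by -1.99 on the log2 scale (edgeR FDR 0.00514), the only one of Myh6, Myh7, Myh7b and Mhrt for which the shift from D10 to D15 or from D15 to D21 passed 0.01.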

How the results depend on the processing

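The log2 fold change of Myh6 at D15 missed the limit of 0.01 in the test as reported and passed it in 7 alternatives, with no filter (-1.38), DESeq2 (-1.39), limma-voom (-1.57), edgeR's likelihood ratio test (-1.38), all 24 hearts in one fit (-1.41), all 12 controls (-1.44) and a replicate block (-1.59, FDR 0.00671). With all 12 controls, Myh6 also passed at D21 (-0.71). With those controls the Myh7 to Myh6 ratio passed an adjusted p of 0.05 at D10 (0.30), D15 (1.32) and D21 (0.85), as did the Myh7b to Myh6 ratio (-0.31, -0.85 and -0.72). Relative to the thin filament and Z-disc genes, Myh6 then passed at D15 (-0.49) and D21 (-0.56) and turned sign at D10 (0.019), Myh7 passed at D10 (0.32) and D15 (0.83), and Myh7b at D15 (-1.29) and D21 (-1.26). These exact tests with all 12 controls permute labels across days, so differences between days enter them and they do not replace the per-day tests. The D10 value of Myh7, near 0, turned sign with total counts (0.033), all 24 hearts (0.0017) and all 12 controls (0.15).

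Leaving out 1 heart gave ranges of -1.87 to -1.10 for Myh6 at D15, -1.07 to -0.53 at D21 and -1.74 to -0.92 for its shift from D10 to D15. Myh7 ranged from -0.14 to 0.14 at D10, -0.30 to 0.015 at D15 and -0.10 to 0.26 at D21. Myh7b ranged from -1.96 to -0.77 at D21 and from -2.30 to -1.53 for its shift from D10 to D15, which also passed without replicate 3 of D21 EAM (-1.86, FDR 0.00642). Among controls, the range was -0.014 to 0.11 for Myh6 from D15 to D21, and for Myh7b it was -0.13 to 0.037 from D10 to D15, -0.29 to 0.015 from D10 to D21 and -0.27 to 0.038 from D15 to D21. For the shift from D15 to D21, the ranges were 0.33 to 1.21 for Myh6 and 0.36 to 1.72 for Myh7b. Relative to the thin filament and Z-disc genes, Myh6 ranged from -0.64 to -0.20 at D15 and from -0.72 to -0.52 at D21. Myh7 so taken ranged from 0.10 to 0.34 at D10, 0.82 to 1.14 at D15 and 0.11 to 0.41 at D21. That of Myh7b ranged from -1.51 to -1.02 at D15 and from -1.62 to -0.98 at D21. The cause of these changes was not tested.

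Same-numbered hearts did not all correlate over 0.1 at any day (-0.0827 to 0.368 at D10, -0.0955 to 0.0351 at D15, 0.0966 to 0.303 at D21), so the numbers were not taken as pairs. At D21 only replicate 1 missed that limit, and the same-numbered EAM heart was the best match of every control. Whether the D21 hearts are paired is therefore unsettled. The block turned the sign of the control differences from D10 to D15 and from D10 to D21 for Myh6 (0.12 and 0.25), Myh7 (0.15 and 0.41) and Myh7b (0.37 and 0.00063), and the smallest exact p for a ratio in blocks is 0.125. With total counts, the D15 median of all genes was 0.17 and Myh6, Myh7 and Myh7b were at -1.25, -0.02 and -2.18. The D21 calls of Fhl1 and Nppa were also lost with limma-voom (FDR 0.0114 and 0.0106) and the replicate block (FDR 0.0178 and 0.0122), and under that block the genes passing higher for the shift from D15 to D21 fell from 1382 to 150 and those passing lower at D21 from 473 to 226. At D21, limma-voom called 271 genes lower, edgeR's likelihood ratio test 1247, all 24 hearts in one fit 1949 and all 12 controls 2850.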
